A study of Homo sapiens with 12 samples.

Results

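The regions described here are the stretches of RNA found with wild-type AGO2 (WT) that no region of the mutant AGO2 5xA touched. They were selected on the measured overlap of both region lists: a WT region was taken when no 5xA region met it by at least 1 base on the same chromosome and strand. Of 1190 WT regions, 223 were WT-only (18.7%, 95% exact binomial interval 16.6 to 21.1) and 967 were shared. Of 2921 5xA regions, 1977 (67.7%) were found with 5xA only. AGO2-bound RNA was mapped by eCLIP, in which ultraviolet light crosslinks RNA to protein, the protein is pulled down, and the RNA pieces it holds are sequenced. HCT116 cells, an established line from a human colorectal carcinoma, were grown for 48 h and then crosslinked at 400 mJ/cm2. The 12 samples form 6 groups of 2, an input and an anti-FLAG immunoprecipitate (IP) for cells labelled AGO2_KO, FH-AGO2_WT and FH-AGO2_5xA. The 2 lists used here are those of the FH-AGO2_WT IPs and the FH-AGO2_5xA IPs, each merged over its 2 replicates. The labels give neither the promoter of the tagged protein nor the number of clones behind each line. The knockout IPs and the inputs were not analysed here.

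AGO2 is the Argonaute protein that carries a miRNA and pairs the seed of that miRNA with target mRNAs, mostly in their 3' UTRs. Casein kinase 1 phosphorylates a cluster of residues of AGO2, and a phosphatase complex that holds ANKRD52 removes the phosphates. In 5xA the residues of this cluster are alanine, so they cannot be phosphorylated. The design asked which RNA sequences each form binds.

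With 1 merged list per genotype there is no replicate error for any difference between WT and 5xA. The read depth behind the regions is unknown, so a WT-only region is one that was not called with 5xA, which is not the same as a site that 5xA does not bind. Coordinates are on hg38. Gene spans and names are from RefSeq (GRCh38.p14), and a region was given to a gene only where the gene lay on its strand or had no strand in the tables. Of 14 colorectal epithelial, 10 fibroblast and 10 blood cell marker genes, 1, 1 and 0 held a WT region and 0 held a WT-only one, and region lists give no expression level to check the cell type further. All tests below are two-sided Fisher's exact tests between groups of regions of the WT list, with Benjamini-Hochberg adjusted p-values.

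Mature miRNAs are the RNAs that AGO2 itself carries, and their genes held shared regions but no WT-only one. The sequences below are shown because their genes held shared regions and because lists of their reported targets are used further on. A region on a miRNA gene does not show that the mature miRNA was loaded, which was not measured here. They are RefSeq mature sequences, 5′ to 3′, and the capitals mark the seed, bases 2 to 8. The miR-93 and miR-106b seeds are the same, and both belong to the miR-17 family.
hsa-let-7a-5p: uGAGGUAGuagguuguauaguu
hsa-miR-93-5p: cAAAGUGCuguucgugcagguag
hsa-miR-106b-5p: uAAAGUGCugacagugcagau
hsa-miR-21-5p: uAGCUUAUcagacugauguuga
Of the 223 WT-only regions, 0 lay on a miRNA gene (exact 95% upper limit 1.64%), while 21 of 967 shared regions did (2.17%, exact adjusted p = 0.0424 over 8 tests). Other small RNA genes held 0 WT-only and 20 shared regions (2.07%, exact adjusted p = 0.0424). Of these 20, 13 lay on copies of snaR-A, a near-identical small RNA family, and with the copies counted as 1 region the adjusted p was 0.417 for the other small RNAs and 0.0563 for the miRNAs (exact tests). When regions were classed as protein-coding before miRNA, 7 shared and 0 WT-only regions were left on miRNA genes (exact adjusted p = 0.411). The test on miRNA genes passed in 1 of 6 alternative settings.

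The WT-only regions were spread over many genes. Of 716 genes with a WT region, 189 (26.4%) held at least 1 WT-only region, and 182 of these 189 held exactly 1. Another 6 genes held 2 and SPRY4 held 3. Protein-coding genes took 187 WT-only regions (83.9%), beside 87.8% of shared ones (odds ratio 0.72, 95% interval 0.476 to 1.12, exact adjusted p = 0.162). lncRNA genes took 6 and pseudogenes 4. A further 14 lay on a main chromosome with no gene on their strand, and 12 lay on alternate contigs, which hold other versions of stretches of the main chromosomes.

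The 223 regions fell into groups by what 5xA held in the same gene. In 123 regions (55.2%, 48.4 to 61.8) the gene also held a 5xA region elsewhere. In 74 regions (33.2%, 27.0 to 39.8) no 5xA region was given to the gene. These 74 lay in 74 different genes, which make up 10.3% of the 716 WT-bound genes. Of the other 26, 14 had no gene on their strand and 12 lay on alternate contigs, where genes were not looked up.

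In genes that 5xA also bound, the WT-only region lay close to a 5xA region. The nearest 5xA region was in the same gene for 123 of 123, and the median gap was 226 bases (quartiles 74 and 508). The gap was at most 50 bases in 19, up to 200 bases in a further 40, up to 1000 bases in 47 more, up to 5000 bases in 10 more, and longer in 7. The nearest 5xA region lay downstream in 61 and upstream in 62, so neither side prevailed. In 37 the gene held 5xA regions on both sides. In 78 (63.4%) the gene also held a shared WT region. The gene held a single 5xA region for 37 of the WT-only regions and 5 or more for 27. The gap follows in part from the rule, which removed every overlap, and in part from grouping by genes that held a 5xA region. It is given with no test and no baseline for closeness.

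**Figure D1:**
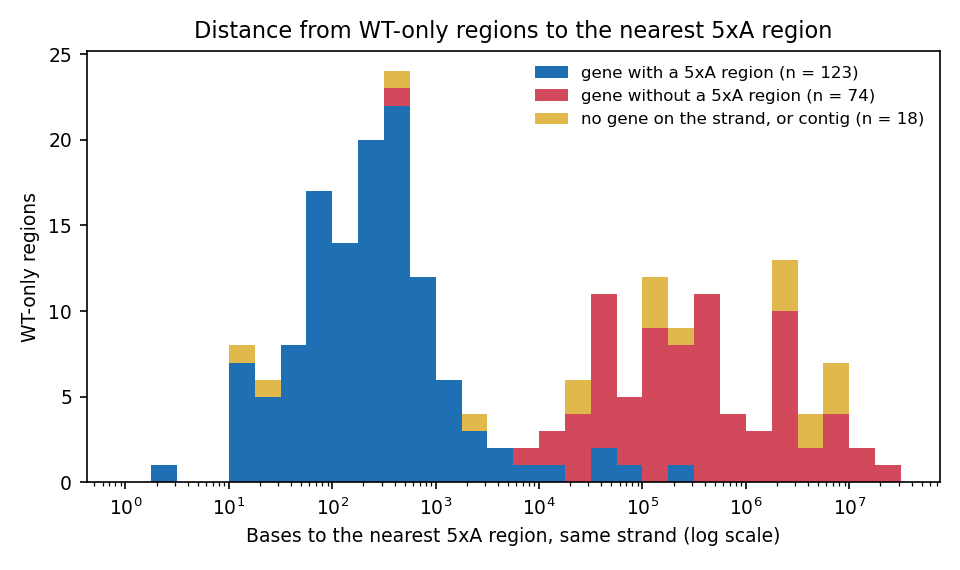
Number of WT-only regions (vertical axis) by the gap in bases to the nearest 5xA region on the same chromosome and strand (log scale). Bars are stacked by whether the gene holds a 5xA region, holds none, or the region has no gene on its strand or lies on a contig. The 123 regions in genes with a 5xA region centre on 226 bases, and 73 of the 74 in genes without one lie more than 5000 bases away.

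At the edge of the rule gaps and overlaps were a few bases long. Just inside it, the WT-only region of MAZ, a zinc finger transcription factor gene, spanned chr16:29810904-29811014 on the plus strand and lay 2 bases from a 5xA region. Those of ATOSB and NACC1, which encodes a BTB-domain repressor, lay 10 bases away, that of SETD5 12 bases, and 1 on an alternate contig of chromosome 6 lay 13 bases away. Just outside it, the shared region of F2RL1, a protease-activated receptor gene, overlapped 5xA by 3 bases, that of DOHH by 5, that of ZFTA by 6 and that of CAPN1, a calpain gene, by 9. A region on chromosome 20 with no gene overlapped by 12 bases. Only 1 WT-only gap and 4 shared overlaps were under 10 bases, whereas 456 of the 967 shared regions lay wholly inside a 5xA region.

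WT-only regions were narrow. Their median width was 91 bases (quartiles 77 and 111, range 64 to 273), beside 121 bases (92 and 176) for shared WT regions and 93 bases for 5xA-only regions. A wider region meets another more easily, so the width is bound up with the rule and was not tested. In 76 of the 123 regions with a 5xA region in the gene, the WT-only region was the narrower of that pair. The widest members lay in CALM3 (273 bases), a calmodulin gene, in PKM (222 bases), in an unannotated stretch of chromosome 8 (190 bases), in UBN2 (189 bases), a histone chaperone subunit gene, and in ZFHX3 (183 bases), a transcription factor gene. The CALM3 region lay 45 bases downstream of a 5xA region in a gene with 2 WT and 5 5xA regions, and that of UBN2 lay 68 bases from one.

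The 7 genes with several WT-only regions all held 5xA regions too. SPRY4, which encodes a feedback inhibitor of receptor tyrosine kinase to ERK signalling, held 7 WT and 6 5xA regions. Its 3 WT-only regions spanned chr5:142312377-142312473, chr5:142313549-142313706 and chr5:142313841-142313905 on the minus strand, 114, 83 and 375 bases from a 5xA region. All lay from 1947 to 3411 bases before the downstream end of the gene. The first lay between shared regions, and the others lay upstream of all shared regions, between these and a 5xA-only region. HIC2, a transcriptional repressor gene and reported let-7 target, held 9 regions in each list. Its WT-only regions at chr22:21447119-21447209 and chr22:21447233-21447304 lay side by side between 5xA regions, 76 and 98 bases from them.

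The other 5 genes held few regions in the WT list. CLUH encodes an RNA-binding protein for mRNAs of mitochondrial proteins and held 3 WT regions and 1 5xA region. Its WT-only regions, 174 and 106 bases wide, lay 147 and 500 bases upstream of that 5xA region. SIK1, a salt-inducible kinase gene, held 3 WT and 2 5xA regions, and its WT-only regions lay 910 and 429 bases from the nearest. The second of these lay 1935 bases before the downstream end, and a WT-only region of LOC102724428, known as a near-identical copy of SIK1 on the same chromosome, lay at the same 1935 bases. Both may come from the same reads, whose placement is uncertain. In ADAM19, a metalloprotease gene, both WT regions were WT-only, at gaps of 198 and 227 bases on either side of the same 1 of its 2 5xA regions. In PDP1, which encodes the phosphatase that activates pyruvate dehydrogenase, both WT regions were WT-only too. They lay 424 and 510 bases before the downstream end, and its 3 5xA regions lay further upstream, the nearest at 1188 bases. ZBTB7A, a BTB zinc finger transcription factor gene, held 3 WT and 7 5xA regions, with WT-only regions at gaps of 48 and 499 bases.

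**Figure D2:**
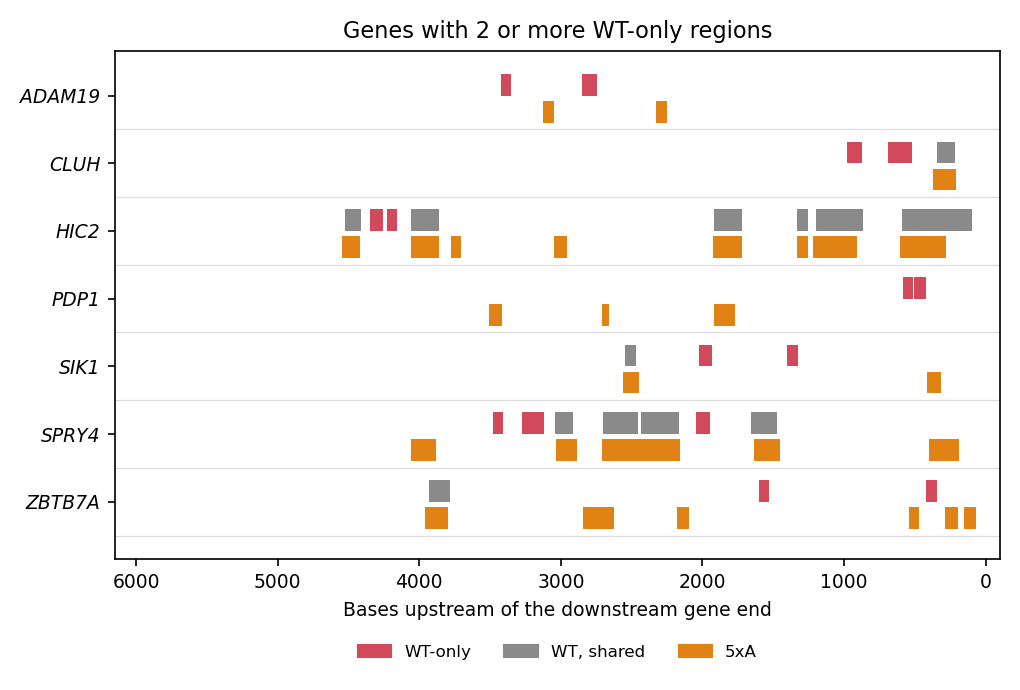
WT-only, shared WT and 5xA regions in the 7 genes with 2 or more WT-only regions, drawn to scale by the number of bases before the downstream gene end (horizontal axis, last 6000 bases). The 3 regions outside this stretch are not drawn, and 0 of them are WT-only. In PDP1 both WT-only regions lie downstream of all 3 5xA regions, and in CLUH both lie upstream of the single one.

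A few WT-only regions lay far from the 5xA regions of their gene. The region of ZFHX3 lay 270857 bases from the nearest of 5 5xA regions. Those of ZCCHC14 and EZR, the latter the gene of the membrane linker ezrin, lay 483 and 111 bases from the upstream gene end, and their nearest 5xA regions lay 80500 and 53178 bases downstream. The reverse held for REEP5, whose WT-only region lay 1867 bases before the downstream end and whose single 5xA region lay 43837 bases upstream. In ZNF469 the gap was 11746 bases.

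In the 74 genes without a 5xA region, the WT list held exactly 1 region each (74 of 74), and 68 of the genes were protein-coding. The share of all WT-bound genes with a single WT region was not computed, so this is not shown to be particular to them. The median gap to the nearest 5xA region anywhere on the strand was 290015.5 bases, and 73 of 74 gaps exceeded 5000 bases. Such long gaps follow in part from taking genes without a 5xA region. On the opposite strand within the gene span 0 of 74 had a 5xA region, and 1 had one on its own strand in the span or within 1 kb of it. This was the pseudogene PABPC1P4, with a 5xA region 360 bases downstream of the WT-only one. That 5xA region lay inside the PABPC1P4 span but was given to another gene. The median width was 85.5 bases, beside 92 bases for WT-only regions in genes with a 5xA region.

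By covered bases these genes were led by PKM, the pyruvate kinase of glycolysis. Its region of 222 bases spanned chr15:72199041-72199262 on the minus strand and ended 12 bases before the downstream gene end, and the nearest 5xA region lay 2210031 bases away. HES6, a gene of the Hairy/Enhancer of split family, held 173 bases at 155 bases before its downstream end. PERP, a p53-induced membrane protein gene, held 167 bases at chr6:138091601-138091767, 3096 bases before its end. DUSP6, the gene of a phosphatase of ERK, held 166 bases at chr12:89348239-89348404, 1004 bases before its end, in a stretch that the readthrough gene POC1B-DUSP6 also spans. PES1, a ribosome biogenesis gene, held 152 bases at 171 bases before its end.

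The next in this order were H3-7, HSPA1B, REPIN1, TMEM250, LOC102724334, BANF1P3, PPM1F, USP22, CLVS1 and PCNX3, with 133 down to 116 bases. The H3-7 region also overlapped the histone pseudogene H2BP2, and that of CLVS1 overlapped NPM1P6, which lies inside the gene at 298239 bases from its downstream end. HSPA1B encodes an inducible HSP70 chaperone and has a near-identical neighbour, HSPA1A, so its reads may be divided between copies. HSPA1A held 1 5xA region and 0 WT regions. That 5xA region began 1576 bases into HSPA1A, and the WT-only region began 1581 bases into HSPA1B, so the absence of a 5xA region holds for the annotated copy alone. USP22, a deubiquitinase gene of the SAGA complex, held its region 282 bases before the downstream end. PCNX3 held its region at the other end of the gene, 458 bases from the upstream end.

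Position in the gene was not itself used by the rule and was compared in protein-coding genes longer than 10 kb. Shared regions lie where 5xA regions lie, so this comparison is still not independent of the rule. Within 5 kb of the downstream gene end, where 3' UTRs lie, were 106 of 149 WT-only regions (71.1%, 63.2 to 78.3) and 571 of 686 shared ones (83.2%, 80.2 to 86.0). The odds ratio was 0.50 (0.326 to 0.767, exact adjusted p = 0.00912). The call ended with a window of 2 kb, where the shares were 51.7% and 59.0% (exact adjusted p = 0.161), with a reciprocal overlap of 50% as the rule, at 80.2% and 81.5% (exact adjusted p = 0.933), and among regions of middle width, between the quartiles of the WT list (exact adjusted p = 0.0979).

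Over the 68 protein-coding genes without a 5xA region, of any length, the WT-only region lay a median of 2206.5 bases before the downstream end (quartiles 291 and 10930.5). The 119 WT-only regions in protein-coding genes with a 5xA region lay a median of 1617 bases before it (663 and 3149.5). The regions in genes without a 5xA region were spread more widely, toward shorter and longer distances. The WT-only regions were then split by whether their gene held a 5xA region. This split uses the same 5xA list as the rule. Shared regions overlap a 5xA region, and WT-only regions in genes with one mostly lie close to it. The tests of either gene end after this split are therefore not independent of the rule, like the comparison before it. The genes without a 5xA region held a single WT region each, and they were not compared with other such genes. In genes with a 5xA region 79 of 99 (79.8%, 70.5 to 87.2) lay near the downstream end, and in genes without one 27 of 50 did (54.0%, 39.3 to 68.2). The odds ratio was 0.30 (0.133 to 0.667, exact adjusted p = 0.00290 over 6 tests chosen after seeing the data). For the reasons above, these values are a description. Against shared regions the genes without a 5xA region had an odds ratio of 0.24 (0.126 to 0.449, exact adjusted p = 1.26e-05). For genes with one the odds ratio was 0.80, with an interval of 0.460 to 1.43 (exact adjusted p = 0.473). The median gene length per region was 34713.5 bases without a 5xA region (quartiles 20252.2 and 58124.2) and 42723 bases with one (23487.5 and 85016.5). For shared regions it was 35236 bases (19191.2 and 79796). The part of gene length in these shares was not tested.

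**Figure D3:**
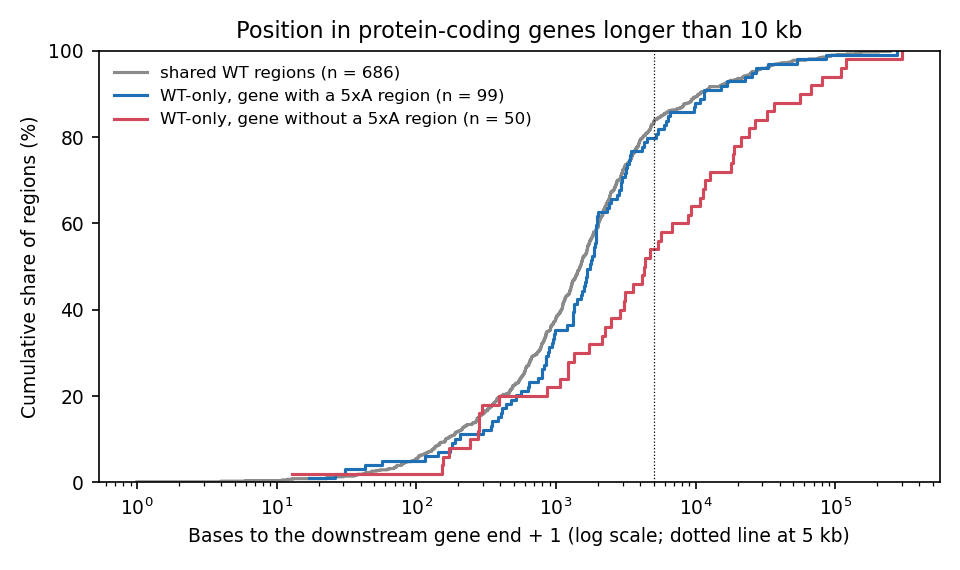
Cumulative share of regions (percent) by the number of bases to the downstream gene end plus 1 (log scale), in protein-coding genes longer than 10 kb, with a dotted line at 5 kb. The curve of WT-only regions in genes without a 5xA region reaches 54.0% at 5 kb, while those of WT-only regions in genes with one and of shared regions reach 79.8% and 83.2%.

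The upstream end showed the opposite order, in tests that depend on the rule in the same way. The position classes divide the same regions, so a lower downstream share leaves larger shares elsewhere. The upstream and interior shares are therefore not independent of the downstream one. Within 5 kb of the upstream gene end lay 10 of 50 WT-only regions in genes without a 5xA region (20.0%, 10.03 to 33.7), 3 of 99 in genes with one (3.03%, 0.629 to 8.60) and 15 of 686 shared regions (2.19%). The first share exceeded the second, with an odds ratio of 7.88 (1.898 to 46.9, exact adjusted p = 0.00216), and it exceeded that of shared regions, with an odds ratio of 11.1 (4.18 to 28.4, exact adjusted p = 7.68e-06). Among regions of middle width, with 4 of 23 and 3 of 54, the first of these was not detectable (odds ratio 3.51, exact adjusted p = 0.225), and neither was the downstream difference (odds ratio 0.38, exact adjusted p = 0.145). With 5xA regions within 200 bases counted as shared, the upstream shares were 10 of 50 and 3 of 52 (odds ratio 4.03, exact adjusted p = 0.0590). More than 5 kb from both ends lay 13 of 50, 17 of 99 (17.2%) and 100 of 686 (14.6%), in the same order, and these interior shares were not tested.

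**Figure D4:**
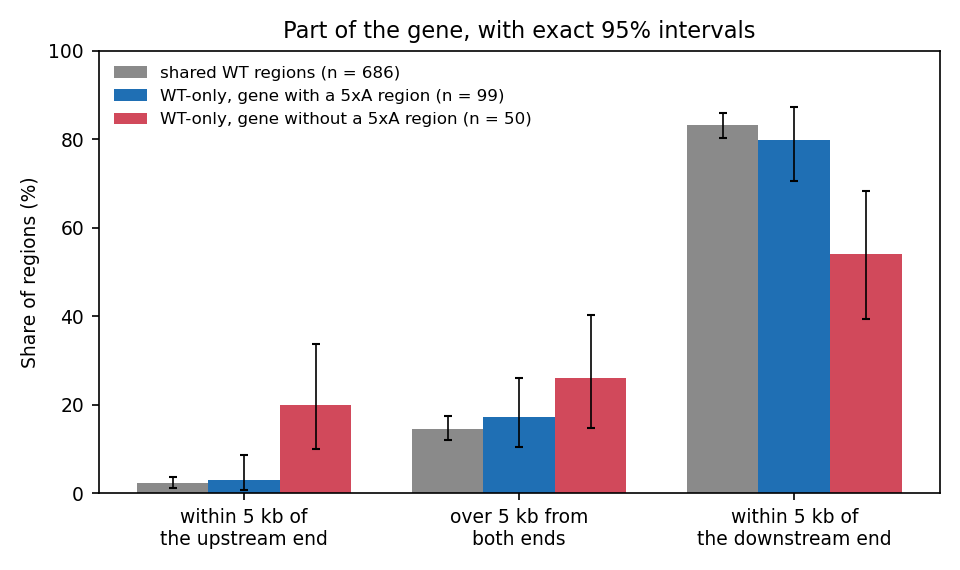
Share of regions (percent, bars from 0) within 5 kb of the upstream end, more than 5 kb from both ends, and within 5 kb of the downstream end of protein-coding genes longer than 10 kb, with exact 95% binomial intervals. WT-only regions in genes without a 5xA region are at 20.0% upstream and 54.0% downstream, and those in genes with one are at 3.03% and 79.8%.

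The 10 upstream regions in genes without a 5xA region were in CANT1 (11 bases from the upstream end), TMEM259 (101), PPP1R12C (182), ZNG1E (305), ANKRD30BL (343), PCNX3 (458), UBE2J2 (855), ZNF503 (3210), SDF4 (3220) and SET (3678). Of these, 7 lay within 1000 bases. They encode proteins of unlike kinds, among them a nucleotidase (CANT1), a regulatory subunit of myosin phosphatase (PPP1R12C), a ubiquitin-conjugating enzyme (UBE2J2) and a histone chaperone and phosphatase inhibitor (SET). The strand of CANT1 was not in the tables and was taken as that of its region. The ANKRD30BL region also overlapped LOC107985804. In genes with a 5xA region the 3 upstream regions were those of CKAP4 (71 bases from the upstream end), EZR and ZCCHC14.

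Some WT-only regions reached a window of RefSeq gene starts, from 250 bases before to 50 bases after the first base of a transcript. On the strand of the gene these were the regions of TRAF4, a signalling adaptor gene, HOXA3, a homeobox gene, and LOC128071545, which lies in TLNRD1. The TRAF4 region, chr17:28744028-28744110 on the plus strand, began 17 bases from the upstream gene end in a gene with 1 5xA region 5582 bases downstream. The HOXA3 region, chr7:27113793-27113861 on the minus strand, lay across an annotated start inside the gene span, in a gene without a 5xA region. The runs below are the 30 bases of each window overlap nearest the middle of the region (RefSeq, GRCh38.p14, sense strand, at 28744031 to 28744060 and 27113812 to 27113841), shown because start windows were the only sequence of members used here.
TRAF4: gggagcgccgctccagcgaggcgcgggctg
HOXA3: gtcggccctgggcgagccgtgctggagcag
G and C made up 84.8% of the 33 TRAF4 bases and 78.3% of the 69 HOXA3 bases in such windows. The median over all 35116 start windows was 58.7% (quartiles 47.0 and 68.0). That value is over whole windows, which are longer than the overlaps and lie mostly before the start, so the shares are not like for like. These are descriptions of single regions.

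Sites without a gene on their strand were a larger share of WT-only than of shared regions, at 14 of 223 (6.28%) and 22 of 967 (2.28%). The odds ratio was 2.87 (interval 1.34 to 5.99, exact adjusted p = 0.0154). Of the 14, 5 lay within 5 kb past the downstream end of a gene. They followed GPD1L by 314 bases, TNFRSF10A by 360, ZNF724 by 697, ZNF543 by 1443 and ZNF460 by 2066. The region past TNFRSF10A, a death receptor gene, was the 190 bases wide one on chromosome 8, and the gene itself held another WT-only region and no 5xA region. Of the 14, 4 overlapped a gene of the opposite strand only, among them PTCHD1-AS, where a 5xA region lay 20 bases away. Contigs held 12 WT-only regions (5.38%) and 24 shared ones (2.48%, odds ratio 2.23, interval 1.001 to 4.73, exact adjusted p = 0.0476). On contigs, 8 of the 12 had no 5xA region on the same contig and strand to be compared with. With a reciprocal overlap of 50% as the rule the adjusted exact p was 0.262 for sites without a gene and 1 for contigs, and among regions of middle width 0.254 and 0.0731.

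Non-coding genes held few members. NORAD, a lncRNA that binds Pumilio proteins, held 4 WT and 9 5xA regions, and its WT-only region of 169 bases lay 286 bases from the nearest of them. LINC01061 held 2 WT and 7 5xA regions, and LINC01000 held 1 and 2. The lncRNA genes LOC100132287, ZKSCAN7-AS1 and BCYRN1, the last a primate-specific neuronal RNA, held 1 WT-only region and no 5xA region. The ZKSCAN7-AS1 region also overlapped the pseudogene MPRIPP1. Among the pseudogenes, MAT2AP1 held 2 5xA regions, and the gene it was copied from, MAT2A, held 3 WT and 5 5xA regions. BANF1P3 and HSPD1P4 held none with 5xA, and BANF1 and HSPD1 held none in either list. PABPC1, the gene of the poly(A)-binding protein, held 0 WT and 2 5xA regions beside the WT-only region of its copy PABPC1P4. The placement of reads that fit several copies is not stated in the sources used here.

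Gene lists for this cell line and pathway are read against the 26.4% of WT-bound genes that held a WT-only region. Counts of listed genes without a 5xA region are read against 10.3% of WT-bound genes. In the silencing machinery 2 of 7 WT-bound genes did. AGO2 held 3 regions in each list and its WT-only region of 110 bases lay 115 bases from a 5xA region, and DDX6, a helicase of mRNA decay, held 2 WT regions and 1 5xA region, with the WT-only one 891 bases from the latter. In the AGO2 phosphorylation list the 1 WT-bound gene was ANKRD52, with 10 WT and 12 5xA regions, and its WT-only region at chr12:56239487-56239595 lay 147 bases from a 5xA region. None of these genes lacked 5xA regions, and with so few genes this is a description only.

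Among reported let-7 targets 2 of 15 WT-bound genes held WT-only regions. These were HIC2 and PLAGL1, a zinc finger transcription factor gene whose region lay 124 bases from its 5xA region. Among miR-17 family targets 3 of 12 did: LIMK1, a kinase gene of actin dynamics, at a gap of 195 bases, E2F3, a cell cycle transcription factor gene with 7 WT and 5 5xA regions, at 22 bases, and TGFBR2, the type II TGF-beta receptor gene, which had no 5xA region. TGFBR2 is also listed for miR-21, where 2 of 7 did, and the other was the phosphatase gene DUSP8, which had none with 5xA either. The TGFBR2 region was 68 bases wide, at chr3:30691816-30691883, 2259 bases before the downstream end.

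In the p53 pathway 4 of 12 WT-bound genes held WT-only regions, and 2 of them, PERP and TNFRSF10A, held none with 5xA. MDM2, the ubiquitin ligase of p53, held 5 WT and 8 5xA regions and a gap of 53 bases, and TNFRSF10B, another death receptor gene, held 2 in each list and a gap of 1492 bases. Among cell cycle genes 2 of 10 did, E2F3 and the CDK inhibitor gene CDKN1B, whose region lay 130 bases from a 5xA region. In the ERK, PI3K and RAS list 4 of 11 did, SPRY4 among them. Of these DUSP6 and the kinase gene AKT1 held no 5xA region, and the AKT1 region lay 18649 bases before its downstream end. EGR1, an immediate early transcription factor gene, held 2 WT and 3 5xA regions and a gap of 885 bases.

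In the Wnt and TGF-beta list 4 of 12 WT-bound genes held WT-only regions. BCL9L, a coactivator gene of beta-catenin, had a gap of 1181 bases, DKK1, a secreted Wnt inhibitor gene whose region lay 160 bases from the upstream end, 2246 bases, and TGIF1, a SMAD corepressor gene, 457 bases. In the heat shock list both WT-bound genes did, HSPA1B with a 5xA region in its copy HSPA1A only, and DNAJB1 at a gap of 174 bases. In the glycolysis list 1 of 4 did and among abundant housekeeping mRNAs 1 of 5, in both cases PKM. In the BCL2 family 0 of 5 WT-bound genes did, and in epithelial-mesenchymal transition 0 of 3. With 15 or fewer WT-bound genes in each list, these counts are descriptions and none was tested.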

How the data were processed

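The deposited lists have 6 columns per region: chromosome, start, end, name, score and strand. The score that the authors deposited is 0 in every row and was not used. The build is hg38, per the submitters' processing notes, which also list TopHat2 and cutadapt 1.9.1. What called the regions, at which threshold, and how replicates were merged is not stated in the sources used here.

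Overlaps were counted in Python 3.11.15 and checked with bedtools 2.31.1, which gave the same 223 regions. On simulated data 100 of 100 planted regions without overlap were found. Genes came from the RefSeq table of GRCh38.p14, with strands from RefSeq gene-start and miRNA tables (29078 of 59675 genes), and 164 of 197 members in a gene had a gene strand. A region went to a protein-coding gene first, then lncRNA, then others, and to the shortest span. Classes were taken with miRNA genes first. Of the WT-only regions that overlap a protein-coding gene of known strand, 160 of 165 lay on its strand. Shares were compared by two-sided Fisher's exact tests (scipy 1.17.1) with Benjamini-Hochberg adjustment, and intervals are exact Clopper-Pearson ones. Both treat regions as independent and cover counting error only. Members, gene lists and tests were chosen with earlier results of these data known. Genes named have several WT-only regions, or lack 5xA regions and cover most bases (15 genes), or lie nearest to, furthest from or just within the rule, or are the widest, or belong to a list or a non-coding class.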

Additional observations from a re-analysis of the deposited data

How the results depend on the processing

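The number of WT-only regions lay between 162 and 223 in 5 of 6 alternatives and was 393 when a reciprocal overlap of 50% was required. Genes without a 5xA region numbered 67 to 82 over 5 alternatives, and the median width was 90 bases after joining. The median gap over the WT-only regions as a whole was 946 bases (95% interval 489 to 5859). It was 957.5 bases with either strand allowed and 1049 bases between midpoints. The lower share near the downstream end passed the exact test in 7 of 10 alternatives and not with a 2 kb window (odds ratio 0.742), a reciprocal overlap of 50% (0.921) or regions of middle width (0.511). For genes without against with a 5xA region, the downstream difference passed in 9 of 10 and not at middle width (0.377), and the upstream one passed in 8 of 10 and not at middle width (3.51) or with regions within 200 bases counted as shared (4.03), all by p-values adjusted over the 6 tests. Genes without a 5xA region against shared regions passed in 10 of 10 downstream (0.212 to 0.327) and in 10 of 10 upstream (4.63 to 12.6). Under a reciprocal overlap, within 50 or 200 bases, or with 1 region per gene, the counts without a 5xA region stayed at 27 of 50 and 10 of 50. In the comparison with shared regions, those settings therefore changed the shared group only. In the comparison of genes without against with a 5xA region, they changed only the genes with one. The tests of either gene end are not independent of the rule, as stated above. For genes with one against shared regions, which did not pass, the direction turned downstream with a 2 kb window (1.11) and a reciprocal overlap (1.41), and upstream with a 10 kb window (0.909) and a reciprocal overlap (0.969).

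Under a reciprocal overlap of 50% the odds ratios were 0.333 for miRNA genes, 1.85 for no gene and 1.01 for contigs, none of them called, and those for protein-coding genes (1.23) and pseudogenes (0.808) turned. With regions within 50 bases counted as shared, the gene taken at the midpoint, or snaR-A copies counted as 1, miRNA and other small RNA genes (0) and contigs (2.22, 2.23 and 2.20) were not called. With protein-coding genes first, miRNA genes (0) were not called and protein-coding genes were (0.626, exact test, adjusted p = 0.0476). At middle width other small RNA genes (0), no gene (2.68) and contigs (3.71) were not called, and no miRNA region was left to test. With gene strand ignored the pseudogene odds ratio was 0.928. The causes were not tested. Alternatives of gene strand, of snaR-A copies and of middle width for the gene ends were chosen after seeing the data. The assignment to 3' UTR, exon or intron and the seed match search were not run, since no genome or exon annotation was used here. No paired analysis was possible because each list merges both replicates. Depth is unknown, so a region missed with 5xA cannot be told from one not bound.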
